A study of Mus musculus with 12 samples.

Results

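The comparison described here sets differentiated mouse embryonic fibroblasts carrying wild-type PPARγ and exposed to the ligand MRL24 against such cells carrying the S273A form of the receptor and no ligand. It uses 6 of the 12 arrays of the study, 3 per group, and covers 9154 genes measured above a low-signal limit. All cells lack their own PPARγ, and either form of the receptor had been introduced into them before 6 days of differentiation. MRL24 was given to wild-type cells at 1 µM for 24 h. The other 6 arrays, untreated wild-type cells and wild-type cells with 1 µM rosiglitazone for 24 h, gave part of the estimate of the spread and are cited as levels. The S273A cells are titled as mutant in the sample labels and the substitution is named in the series text, and both were taken to mean the same group.

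PPARγ, a nuclear receptor, is the master regulator of adipogenesis and binds DNA with an RXR partner. Its serine at Ser273 is phosphorylated by CDK5 and ERK kinases in adipose tissue of obese animals, which alters a limited set of genes without general loss of agonist-driven transcription. S273A carries alanine there and cannot be phosphorylated at that site. MRL24 is a partial agonist that blocks this phosphorylation while activating classical target genes less than full agonists such as rosiglitazone do. The comparison therefore sets a ligand known to block the phosphorylation against a receptor that cannot carry it; the arrays did not measure phosphorylation. Receptor form, ligand and cell population all differ between the groups and cannot be told apart. The labels do not say whether the S273A cells received vehicle, how the receptor was introduced, whether untreated cells were collected on the same day as treated ones, or whether arrays came from separate cultures, so p-values reflect array-to-array spread that could be technical.

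Depth in the sense of reads does not apply to arrays, and the number of arrays limits the precision. Array medians lay between 298.7 and 301.5 intensity units for S273A and between 308.4 and 314.9 for MRL24, and 2.30% to 2.48% of values in these arrays sat at the floor of 1. The ratio of 3′ to 5′ actin probe sets, a sign of RNA integrity, was 1.05 to 1.06 with S273A and 1.05 to 1.08 with MRL24, and that of Gapdh was 0.852 to 0.889 and 0.864 to 0.887. In the untreated wild-type arrays, which add to the shared spread, the actin ratio was 1.05 to 1.15. It was highest in the second of them, which also varied most around its group mean (SD 0.181 on the log2 scale). No arrays held identical values, and the labels name no batch. Of the 6 control genes tested, Actb, Hprt, Tbp, Rplp0, B2m and Gusb, none passed the test, with log2 differences from 0.01 to 0.16, of which those of Actb, Rplp0 and B2m turned sign when all arrays were scaled to the same median. The labels call the cells adipocytes, and adipocyte markers were uneven in all 6 arrays: Fabp4, Lpl, Cebpa and Retn were measured above the limit, whereas Adipoq, Cidec, Lep and Aqp7 were not. Fibroblast genes were measured in every array, Vim, vimentin, at 31536 to 32556 and Dcn, decorin, at 17286 to 18745.

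With MRL24, 533 genes were higher and 312 were lower than with S273A at an adjusted p under 0.05. That is 845 of the 9154 tested genes or 9.23%, made up of 5.82% higher and 3.41% lower. Unadjusted p-values were under 0.05 for 2268 genes. Most differences were small: the median absolute log2 difference of the called genes was 0.29, and 44 called genes passed 1.5-fold, 35 of them higher. Only 6 called genes passed 2-fold, of which 4 were higher and 2 were lower. The balance between directions depended on the scaling: the median difference of all tested genes was 0.02 on the log2 scale as deposited, and after scaling all arrays to the same median the split was 319 higher and 600 lower, and after quantile normalization 422 higher and 547 lower. The number of calls also moved with single arrays: it was 398 without the third MRL24 array, 415 without the second, 489 without the first, 540 without the second S273A array, 539 without the third, and 1328 without the second untreated wild-type array, which enters only through the shared spread.

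**Figure D1:**
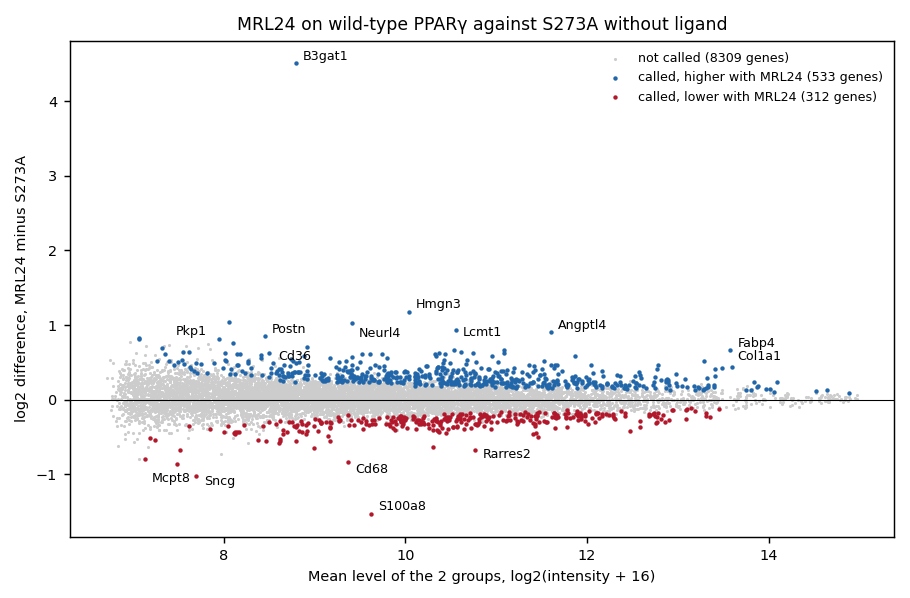
Each dot is 1 of 9154 genes, with its mean level in the 2 groups as log2(intensity + 16) on the x axis and its log2 difference, MRL24 minus S273A, on the y axis; blue marks the 533 genes called higher with MRL24 and red the 312 called lower. Most called genes lie close to 0, S100a8 is the lowest at -1.53, and B3gat1, whose mean level with S273A was under the limit, is drawn at its fitted value of 4.51.

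The other groups show which side of the comparison stood apart, as a description without a test. Among the 533 genes higher with MRL24, the 3 S273A arrays lay below all 9 other arrays for 242 genes (45.4%), and the 3 MRL24 arrays lay above all 9 others for 116 (21.8%). Among the 312 genes lower with MRL24, the S273A arrays lay above all others for 107 (34.3%) and the MRL24 arrays below all others for 79 (25.3%). Over all tested genes, these shares were 4.8% and 2.87% in the first direction and 2.43% and 2.27% in the second. The called genes were chosen by the difference between these same arrays, and each placement includes that difference. Their shares therefore lie above those of all genes by construction, and the gap is not a result.

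Classical targets of PPARγ agonists were split into a few genes called higher and a larger number that did not pass the test. Of 55 listed targets, 45 had a probe set and 34 were above the limit. Among those, 6 were called higher and 1 lower, against 5.82% and 3.41% of all tested genes, and their median log2 difference was 0.05 against 0.02 for all genes. Angptl4, a secreted inhibitor of lipoprotein lipase, had intensities of 2201, 2328 and 2243 in the S273A arrays and 4208, 4166 and 4326 in the MRL24 arrays. The groups did not overlap, and Angptl4 rose by 0.90 on the log2 scale (SE 0.05, 1.87-fold, adjusted p = 1.2e-08). Its levels were 2933 to 3188 in untreated wild-type cells and 7907 to 8548 with rosiglitazone, so both groups of the comparison lay on opposite sides of untreated wild-type. A dimmer Angptl4 probe set below the limit differed by -0.31, and the call was lost when probe sets of a gene were averaged (adjusted p = 0.231).

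Fabp4, the fatty acid carrier that is among the most abundant proteins of fat cells, read 10156, 9702 and 9246 with S273A and 15345, 15535 and 15137 with MRL24. It rose by 0.66 (SE 0.05, 1.58-fold, adjusted p = 6.47e-07), and untreated wild-type cells, at 8838 to 10368, were at the level of the S273A cells. Pdk4, the kinase that turns off pyruvate dehydrogenase, read 1113, 1088 and 1117 with S273A and 1673, 1800 and 1618 with MRL24. It rose by 0.61 (SE 0.07, 1.53-fold, adjusted p = 4.23e-05). For Pdk4 the untreated wild-type arrays, at 1374 to 1638, lay above all S273A arrays. Acaa1b, which cleaves fatty acyl chains in peroxisomes, was 166, 116 and 146 with S273A and 246, 247 and 193 with MRL24, a rise of 0.63 (SE 0.13, adjusted p = 0.00655). Hilpda, a lipid droplet protein that restrains triglyceride breakdown, rose by 0.16 (SE 0.03, adjusted p = 0.00804), a call lost after quantile normalization (adjusted p = 0.0562) and without the variance trend (adjusted p = 0.0597). For Hilpda, untreated wild-type cells, at 9848 to 10247, were at the level of the MRL24 cells, at 9980 to 10216.

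Cd36, the fatty acid translocase, read 278, 330 and 297 with S273A, 405, 406 and 422 with MRL24 and 150 to 177 in untreated wild-type cells. The S273A arrays were thus the middle group for Cd36, and MRL24 stood 0.43 above them (SE 0.08, 1.35-fold, adjusted p = 0.00428). Rosiglitazone gave 1376 to 1448. Other targets did not pass the test. Lpl, the lipoprotein lipase that Angptl4 inhibits, was 2124, 2134 and 2245 with S273A and 2316, 2317 and 2452 with MRL24. The groups of Lpl did not overlap, and the difference was 0.12 (95% interval -0.00 to 0.25, adjusted p = 0.204). Plin2, a coat protein of lipid droplets, differed by 0.04 (95% interval -0.04 to 0.13, adjusted p = 0.563), with overlapping groups. Cidec, which enlarges lipid droplets, was below the limit and not tested, at 2.90, 14.1 and 5.10 with S273A and 22.4, 27.4 and 41.5 with MRL24, and at 84.7 to 119 with rosiglitazone.

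**Figure D2:**
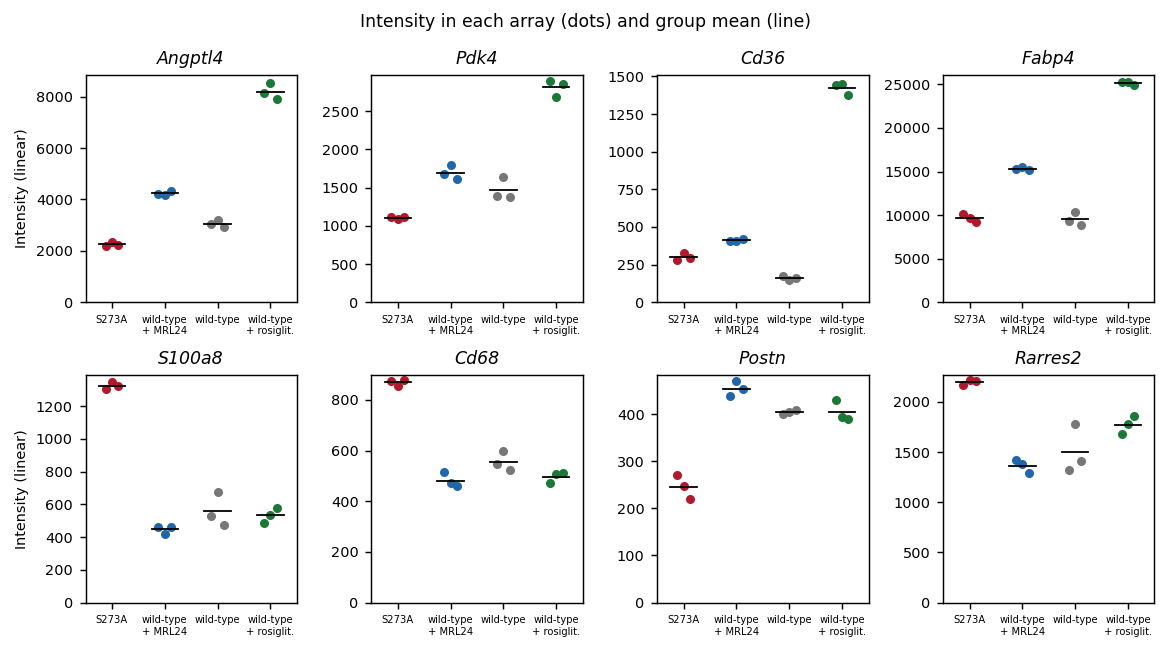
Each panel gives the linear intensity of 1 gene in the 12 arrays (dots, 3 per group) with the group mean as a line, for S273A, wild-type with MRL24, untreated wild-type and wild-type with rosiglitazone. Angptl4, Pdk4, Cd36 and Fabp4 are higher with MRL24 than with S273A and highest with rosiglitazone; S100a8 and Cd68 stand out in the S273A arrays alone, Postn is lowest there, and Rarres2 is highest there.

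The promoter of Cd36 is shown because it was the only one of the 4 agonist targets called higher with a promoter window here (Cd36, Pdk4, Acaa1b and Hilpda) that held AGGTCA, the half-site read by nuclear receptors. The search covered 250 bases before to 50 after each gene start on both strands in RefSeq windows of GRCm38.p6, and AGGTCA occurred in 16.3% of 32851 windows. A direct repeat, 2 copies of AGGNCA in the same direction with 1 base between, the form bound by PPARγ with RXR, occurred in 0.381% of windows and in none of the 4 genes. The 250 bases before the Cd36 start, chr5:17835897-17836146 on the minus strand, follow 5′ to 3′ in the direction of transcription. Capitals mark the match, which starts at -228 and lies on the opposite strand.
Cd36: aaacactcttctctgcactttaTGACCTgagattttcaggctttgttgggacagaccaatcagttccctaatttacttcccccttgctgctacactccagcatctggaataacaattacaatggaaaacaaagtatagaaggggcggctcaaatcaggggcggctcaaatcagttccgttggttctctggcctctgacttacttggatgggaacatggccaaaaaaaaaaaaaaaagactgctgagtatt

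Genes linked to Ser273, a list of 17 taken from what is known of the phosphorylation site, address whether the ligand on wild-type receptor and the substitution leave the same levels. The list was drawn up in earlier work partly on cells of this kind and is not independent evidence of direction. Of the 17 genes, 15 had a probe set and 14 were above the limit, and 4 were called lower with MRL24 and 1 higher, beside 3.41% and 5.82% of all tested genes. The median difference over the 14 was -0.12. It was 0.04 when probe sets of a gene were averaged. Rarres2, the adipokine chemerin, read 2166, 2223 and 2208 with S273A and 1426, 1383 and 1287 with MRL24. It fell by 0.68 (SE 0.08, 1.61-fold lower with MRL24, adjusted p = 0.000142), with untreated wild-type at 1316 to 1781. Selenbp1, a selenium-binding protein, read 3534, 4223 and 4228 with S273A and 3086, 2923 and 3212 with MRL24, a fall of 0.37 (SE 0.06, adjusted p = 0.00222). Untreated wild-type arrays of Selenbp1, at 2824 to 3036, lay close to the MRL24 arrays, and both groups lay below the S273A arrays.

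Cyp2f2, a cytochrome P450, was 0.27 lower with MRL24 than with S273A (SE 0.07, adjusted p = 0.0175). Its MRL24 arrays, at 702.5 to 710.8, were the middle group. The S273A arrays were at 813 to 891.9 and untreated wild-type cells at 506 to 582.8. Txnip, a thioredoxin inhibitor that limits glucose uptake, fell by 0.14 (SE 0.04, adjusted p = 0.0228). Both calls were lost without any 1 of the 3 MRL24 arrays or without the second S273A array (adjusted p of 0.0557 to 0.0738 for Cyp2f2 and 0.0544 to 0.0953 for Txnip); Cyp2f2 was also lost without the first S273A array (adjusted p = 0.0513) and Txnip without the third (adjusted p = 0.0912), without the trend or with averaged probe sets. Acly, which makes cytosolic acetyl-CoA for fat synthesis, was the exception in direction: it read 3693, 4302 and 3993 with S273A and 5281, 5132 and 5227 with MRL24. It rose by 0.39 (SE 0.06, 1.31-fold, adjusted p = 0.0016), and 3 of its 5 probe sets were above the limit and differed by 0.36 to 0.45. With all 5 averaged the call was lost (adjusted p = 0.442). The remaining 9 genes did not pass the test. Peg10, a gene of retrotransposon origin, differed by 0.40 (95% interval 0.11 to 0.69, adjusted p = 0.0781) and Coq9, a ubiquinone synthesis protein, by -0.16 (95% interval -0.28 to -0.04, adjusted p = 0.083). The clock repressor Nr1d1 differed by -0.14 (95% interval -0.28 to -0.00) and its relative Nr1d2 by -0.12 (95% interval -0.26 to 0.03). For Nr3c1, the glucocorticoid receptor, Cd24a, Ddx17, Aplp2 and Car3 the differences lay between -0.13 and 0.12 by the brightest probe set. Dimmer probe sets above the limit differed by 0.20 and 0.29 for Nr3c1, 0.15 and 0.39 for Ddx17, 0.11 and 0.19 for Cd24a, 0.09 to 0.29 for Aplp2, and 0.14 for Car3. With averaged probe sets Nr3c1 (0.20, adjusted p = 0.00879) and Ddx17 (0.22, adjusted p = 0.0303) were called higher. Coq9 was called lower after quantile normalization (adjusted p = 0.0462) and with equal medians (adjusted p = 0.0343), and Peg10 higher without the trend (adjusted p = 0.0442). These intervals leave room for differences of the size seen in the called genes, so equal levels are not shown. Adipoq, the adipokine adiponectin, was below the limit at 90.9, 106 and 94.6 with S273A and 46.5, 66.1 and 91.3 with MRL24, where the groups overlapped.

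**Figure D3:**
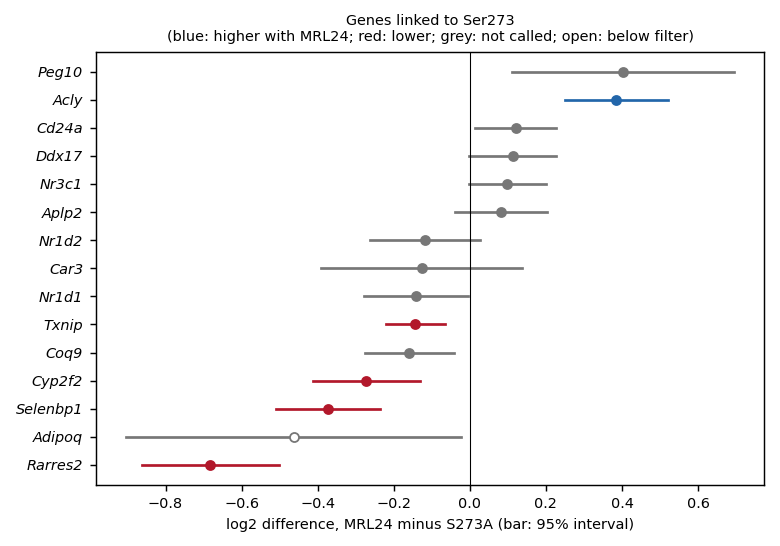
Points give the log2 difference, MRL24 minus S273A, of each of the 15 Ser273 genes with a probe set, and bars its 95% interval; blue was called higher, red lower, grey not called, and the open point, Adipoq, was below the limit. The intervals of the genes called lower, Rarres2, Selenbp1, Cyp2f2 and Txnip, lie wholly below 0, and that of Acly lies above. Most others reach or come close to 0. Some genes that were not called also have intervals that leave out 0, among them Coq9, Adipoq, Peg10 and Cd24a.

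Pparg itself read 1249, 1042 and 930 with S273A and 854, 822 and 861 with MRL24. The groups did not overlap, but the difference of -0.33 (SE 0.10, 95% interval -0.54 to -0.12) just missed the threshold at an adjusted p of 0.0509, and it passed under 9 of the alternatives tried. The probe set does not tell the introduced forms apart and so gives no check of the labels. Of 16 tested genes for receptor partners, coregulators and Ser273 kinases, 3 were called higher and none lower, against 5.82% and 3.41% of all tested genes. They were Med1, a subunit of the Mediator complex (0.31, SE 0.08, adjusted p = 0.0179), Thrap3, a reader of phosphorylated Ser273 (0.24, SE 0.06, adjusted p = 0.0175), and Map2k1, the kinase MEK1 upstream of ERK (0.20, SE 0.04, adjusted p = 0.00802). Other probe sets of Med1 differed by -0.23 to 0.16, and the calls of Med1 and Thrap3 were lost when probe sets were averaged (adjusted p = 0.804 and 0.0538). Med1 was also lost without the first S273A array (adjusted p = 0.0763), the second MRL24 array (adjusted p = 0.0617) or the third (adjusted p = 0.0743), and Thrap3 without the third S273A array (adjusted p = 0.0672) or the third MRL24 array (adjusted p = 0.0883). Among 25 tested adipocyte transcription factors, 4 were called higher and 1 lower, against the same shares. Klf2, which restrains adipogenesis, rose by 0.40 (SE 0.08, adjusted p = 0.00619) and Id2, a helix-loop-helix inhibitor, by 0.26 (SE 0.05, adjusted p = 0.00568, or 0.0607 with averaged probe sets).

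Genes of the extracellular matrix and of fibroblasts were the list with the most calls. Of 43 genes, 40 were tested, and 16 were called higher and 1 lower with MRL24, against 5.82% and 3.41% of all tested genes, with a median difference of 0.11. In 24 of the 40 the 3 MRL24 arrays lay above the 3 S273A arrays, against 19.7% of all tested genes, and in 2 below, against 13.4%. Col1a1, a chain of type I collagen, read 11210, 10975 and 9854 with S273A and 13859, 14143 and 15182 with MRL24. It rose by 0.43 (SE 0.06, 1.35-fold, adjusted p = 0.000605). Its partner chain Col1a2 read 10235, 10495 and 8960 against 13299, 12927 and 13580 and also rose by 0.43. Col3a1, type III collagen, read 9497, 9838 and 9054 against 12243, 12563 and 12755, a rise of 0.40 (SE 0.04, adjusted p = 1.98e-05). Untreated wild-type arrays lay above all S273A arrays for these 3 collagens, for Col3a1 at 11633 to 12653.

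The largest rise of the matrix list was that of Postn, periostin, a matricellular protein that binds collagen. It read 271, 248 and 220 with S273A and 439, 471 and 453 with MRL24, a rise of 0.85 (SE 0.08, 1.80-fold, adjusted p = 1.98e-05), and untreated wild-type cells were at 401 to 409. Fbln5, an elastic fibre protein, rose by 0.47 (SE 0.07, adjusted p = 0.00106), and Pdgfra, the PDGF receptor of fibroblasts and adipocyte progenitors, by 0.41 (SE 0.06, adjusted p = 0.00051). For Fbln5, untreated wild-type cells were at 713 to 821, above all S273A arrays. Mmp3, the matrix protease stromelysin, was the member that fell, from 529, 540 and 504 with S273A to 399, 340 and 318 with MRL24 (by 0.56 on the log2 scale, SE 0.09, adjusted p = 0.00145). In the opposite direction Mmp13, a collagenase, rose by 0.67 (SE 0.06, adjusted p = 3.53e-06). Markers of preadipocytes and fibroblasts moved with these genes: 4 of 10 tested were called higher and none lower, and their summed intensity was 94635 to 101293 with S273A and 109462 to 113342 with MRL24. The 4 called, Col1a1, Col1a2, Col3a1 and Pdgfra, are also in the matrix list. Dcn and Vim, which were brighter than these 4, were not called, with differences of -0.03 and 0.01. Dimmer probe sets of Vim differed by 0.09 and 0.14. In RNA from a whole culture, more cells of a type and more RNA per cell cannot be told apart, and the part of cell makeup in these differences was not tested.

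Cytoskeletal and myofibroblast genes gave 6 called higher and none lower of 21, against 5.82% and 3.41% of all tested genes, with a median of 0.12. Ccn2, connective tissue growth factor, read 1679, 1570 and 1574 with S273A and 2498, 2380 and 2386 with MRL24. It rose by 0.59 (SE 0.05, adjusted p = 3.72e-06), and untreated wild-type cells were at 2211 to 2412, above all S273A arrays. Ccn1, a related secreted protein, rose by 0.26 (SE 0.04, adjusted p = 0.000315), Actn1, the actin crosslinker α-actinin, by 0.30 (SE 0.06, adjusted p = 0.00876), and Vcl, vinculin of focal adhesions, by 0.20 (SE 0.05, adjusted p = 0.0136). For Ccn1, untreated wild-type cells, at 8098 to 8457, were at the level of the MRL24 cells. For Actn1, at 2845 to 3432, they were near the S273A cells. The call of Vcl was lost without the second MRL24 array (adjusted p = 0.051) or the third (adjusted p = 0.0607), with equal medians (adjusted p = 0.063) and without the trend (adjusted p = 0.0563).

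Genes of the respiratory chain and ATP synthase, which make ATP in mitochondria, were called in the other direction. Of 44 tested genes of oxidative phosphorylation, 13 were called lower with MRL24 and none higher, beside 3.41% and 5.82% of all tested genes. The median difference was -0.15, 41 of the 44 were below 0, and in 33 the 3 MRL24 arrays lay below the 3 S273A arrays, against 13.4% of all tested genes. Cox7a2, a subunit of cytochrome c oxidase, read 8321, 8101 and 8282 with S273A and 6887, 6644 and 6603 with MRL24. It fell by 0.29 (SE 0.06, 1.23-fold lower with MRL24, adjusted p = 0.00568). Ndufs8, a subunit of complex I, fell by 0.33 (SE 0.07, adjusted p = 0.00872), from 2642, 2784 and 2639 to 2285, 2137 and 1976; without the third MRL24 array its adjusted p was 0.0549. Cox7a1, the muscle and heart form of the same oxidase subunit and not in the list, fell by 0.58 (SE 0.12, adjusted p = 0.00616).

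Complex II, which also serves the tricarboxylic acid cycle, showed the same direction. Sdhb, its iron-sulphur subunit, read 3126, 3516 and 3347 with S273A and 2819, 2574 and 2678 with MRL24, a fall of 0.31 (SE 0.06, adjusted p = 0.00616). Sdhd, its membrane anchor, fell by 0.32 (SE 0.07, adjusted p = 0.00784). The number of oxidative phosphorylation genes called lower changed with single arrays: it was 4 without the second or the third MRL24 array, 6 without the second S273A array, 8 without the third, and 23 without the second untreated wild-type array, in which several of these genes read higher than in the other untreated arrays. The median stayed between -0.19 and -0.12 under all alternatives tried.

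**Figure D4:**
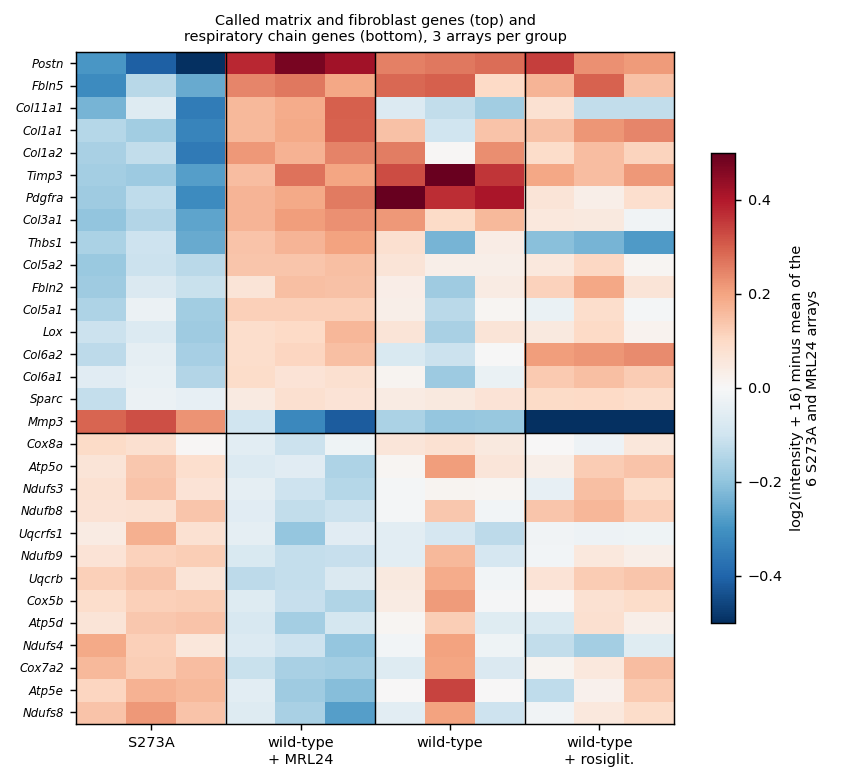
Colour gives log2(intensity + 16) in each of the 12 arrays minus the mean of the 6 S273A and MRL24 arrays, for the 17 called matrix and fibroblast genes (top) and the 13 called oxidative phosphorylation genes (bottom); red is higher, blue is lower, and values past 0.5 in either direction share the end colour. Col1a1, Col1a2, Col3a1 and Postn are low in all 3 S273A arrays, the respiratory genes are low in the 3 MRL24 arrays, and the second untreated wild-type array differs from the other untreated arrays in the respiratory genes.

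Some genes of glucose use and of the response to low oxygen were higher with MRL24. Of 19 tested genes of glycolysis and glucose uptake, 3 were called higher and none lower, against 5.82% and 3.41% of all tested genes, with a median of 0.06. Slc16a3, the lactate exporter MCT4, read 2505, 2543 and 2330 with S273A and 3474, 3572 and 3509 with MRL24. It rose by 0.51 (SE 0.05, 1.43-fold, adjusted p = 4.76e-06), with untreated wild-type at 3425 to 3669. Pfkp, a phosphofructokinase, rose by 0.33 (SE 0.05, adjusted p = 0.0012) and Hk2, hexokinase, by 0.32 (SE 0.06, adjusted p = 0.00261). For Hk2, untreated wild-type cells were at 4731 to 5595, above all S273A arrays. Of 19 hypoxia genes, 5 were called higher and none lower, against the same shares, and in 12 the MRL24 arrays lay above the S273A arrays, against 19.7% of all tested genes. Hif1a, the oxygen-regulated transcription factor subunit, read 5956, 5962 and 6073 with S273A and 8216, 8152 and 8450 with MRL24, a rise of 0.46 (SE 0.05, 1.38-fold, adjusted p = 2.71e-05). Vegfa, the vascular growth factor, rose by 0.32 (SE 0.05, adjusted p = 0.000566), whereas a second probe set of similar brightness differed by 0.13 (SE 0.08).

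Interferon response genes had the highest median of the pathway lists. Of 41 listed genes 29 were tested, 5 were called higher and none lower, against 5.82% and 3.41% of all tested genes, the median was 0.21, and 27 of 29 differences were above 0. Ifit3, an antiviral protein induced by type I interferon, read 1170, 1155 and 1133 with S273A and 1570, 1572 and 1546 with MRL24. It rose by 0.43 (SE 0.05, 1.35-fold, adjusted p = 0.000113), and untreated wild-type cells were at 1616 to 1629. The S273A arrays were thus the low group for Ifit3. Usp18, a protease that removes ISG15, read 219, 242 and 263 against 356, 363 and 337, a rise of 0.52 (SE 0.09, adjusted p = 0.00264). Irgm1, an interferon-induced GTPase, read 338, 331 and 365 against 414, 447 and 438, a rise of 0.32 (SE 0.08, adjusted p = 0.0191). Ifi204, from a family of near-identical genes whose probes may cross-match, rose by 0.50 (SE 0.14, adjusted p = 0.0309), and its call and that of Irgm1 were lost without the second or the third MRL24 array and without the first or the second S273A array (adjusted p of 0.0632 to 0.126 for Ifi204 and 0.0569 to 0.0837 for Irgm1). Ifi204 was also lost without the first MRL24 array (adjusted p = 0.0832), with equal medians, without a filter and without the trend.

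The promoters of Ifit3 and Irgm1 are shown because these genes rose together and hold the interferon-stimulated element searched for, 2 copies of GAAA in the same direction with 2 bases between, on either strand. It occurred in 3.44% of 32851 windows, in 11 of the 23 tested interferon genes with a window and in 2 of the 3 called genes with one. Each run gives the 250 bases before the gene start, 5′ to 3′ in the direction of transcription, with matches in capitals. Ifit3 lies at chr19:34583279-34583528 on the plus strand, with matches from -156 and from -122, both on the opposite strand. Irgm1 lies at chr11:48871421-48871670 on the minus strand, with overlapping matches from -30 and from -24.
Ifit3: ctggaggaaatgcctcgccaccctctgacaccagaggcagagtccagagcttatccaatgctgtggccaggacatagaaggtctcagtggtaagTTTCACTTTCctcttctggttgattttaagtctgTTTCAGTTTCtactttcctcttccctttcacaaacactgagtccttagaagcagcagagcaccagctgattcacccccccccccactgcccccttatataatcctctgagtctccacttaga
Irgm1: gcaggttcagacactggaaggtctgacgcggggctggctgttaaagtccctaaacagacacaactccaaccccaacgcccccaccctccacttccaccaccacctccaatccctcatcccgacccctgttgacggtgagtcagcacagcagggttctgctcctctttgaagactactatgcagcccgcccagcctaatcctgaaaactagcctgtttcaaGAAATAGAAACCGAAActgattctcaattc

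**Figure D5:**
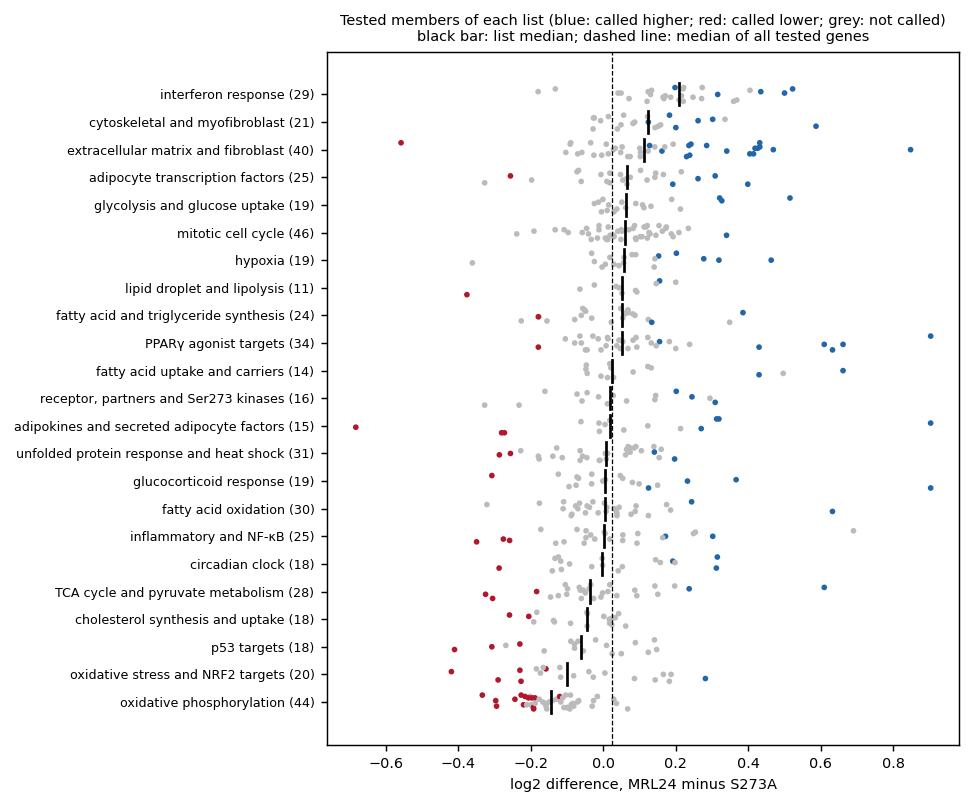
Each row is a list of genes with its number of tested members in brackets, and each dot is a member's log2 difference, MRL24 minus S273A; blue was called higher, red lower and grey not called. The black bar is the list's median and the dashed line the median of all tested genes, 0.02; of the pathway lists drawn, interferon response has the highest median, 0.21, and oxidative phosphorylation the lowest, -0.15.

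S100a8, Mcpt8 and Cd68, genes known from myeloid cells, were 3 of the 4 largest falls. S100a8, a calcium-binding protein abundant in neutrophils, read 1304, 1344 and 1321 with S273A and 460, 417 and 463 with MRL24. By its 1 probe set it fell by 1.53 (SE 0.10, 2.90-fold lower with MRL24, adjusted p = 4.37e-07). The S273A arrays lay far above the other 9, in which S100a8 was 417 to 675. Cd68, a lysosomal protein of macrophages, read 875, 857 and 878 against 514, 472 and 459, a fall of 0.83 (SE 0.07, adjusted p = 3.53e-06). Mcpt8, a protease of basophils and mast cells, read 250, 198 and 230 against 124, 134 and 95.7, a fall of 0.86 (SE 0.18, adjusted p = 0.0081). Cd14, a receptor for lipopolysaccharide, fell by 0.29 (SE 0.07, adjusted p = 0.0165), a call lost without the third S273A array (adjusted p = 0.0544), the second MRL24 array (adjusted p = 0.0866) or the third (adjusted p = 0.058).

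Few other markers of those cells were called or measured above the limit. Of 18 macrophage and monocyte markers, 6 were tested and 2, Cd68 and Cd14, were called lower, and none higher, against 3.41% and 5.82% of all tested genes. The summed intensity of the list was 4306 to 4548 with S273A and 3830 to 3963 with MRL24, and without Cd68 it was 3428 to 3673 and 3316 to 3504, which overlap. Of the 6 tested markers 3 were above 0: Mrc1, the mannose receptor, read 396, 341 and 324 with S273A and 419, 437 and 422 with MRL24, without overlap (adjusted p = 0.0587), and Cybb, a subunit of the phagocyte oxidase, read 130, 119 and 130 against 135, 165 and 155, also without overlap (adjusted p = 0.411). Csf1r, the receptor for macrophage colony-stimulating factor, read 1834, 1806 and 1714 with S273A and 1726, 1794 and 1839 with MRL24, where the groups overlapped. C1qc was at the floor of 1 in all 6 arrays, Lyz2 read at most 24.2, and Ptprc, the pan-leukocyte marker CD45, read 10.8 to 55.9. Of 12 neutrophil and myeloid markers, 7 were tested and S100a8 alone was called, against 3.41% lower and 5.82% higher of all tested genes. The summed intensity of that list was 8560 to 8703 with S273A and 7220 to 7374 with MRL24, and 7256 to 7383 and 6803 to 6911 without S100a8. Most of the sum without S100a8 was Lcn2, which was not called, at a mean of 6143 with S273A and 5840 with MRL24. That sum is therefore mainly the level of 1 gene. S100a9, the binding partner of S100a8, was below the limit at 49.4, 29.1 and 44.9 with S273A and 33.4, 21.4 and 31.3 with MRL24. None of 4 tested mast cell markers passed the test, and Hdc was at the floor in all 6 arrays. No tested marker of endothelium, skeletal muscle, chondrocytes, osteoblasts or neural cells passed the test. Of 4 tested epithelial markers 2, Krt18 and Pkp1, were called higher and none lower, against 5.82% and 3.41% of all tested genes. Krt19, the brightest of the 4, differed by -0.21 and Krt8 by 0.02, and neither was called.

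The remaining large falls were in genes of mixed function. Sncg, γ-synuclein, which is abundant in fat and nerve cells, read 284, 304 and 254 with S273A and 153, 104 and 134 with MRL24, a fall of 1.03 (SE 0.16, 2.04-fold lower with MRL24, adjusted p = 0.00102). Ddt, a tautomerase related to the cytokine MIF, read 1532, 1562 and 1593 against 988, 988 and 1022, a fall of 0.64 (SE 0.09, adjusted p = 0.000493). Tubb4a, a β-tubulin of nerve cells, fell by 0.80 (SE 0.17, adjusted p = 0.00703), to a mean under the limit with MRL24. Rtl8c, Ankrd33b, Trp53inp2, Celf4, Sparcl1 and Mustn1 fell by 0.54 to 0.68. The calls of Rtl8c and Sparcl1 were lost without the first MRL24 array (adjusted p = 0.0536 and 0.063), that of Rtl8c also without the first S273A array (adjusted p = 0.0512), and that of Sparcl1 without the second S273A array (adjusted p = 0.0714) or the third MRL24 array (adjusted p = 0.0579).

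Among the largest rises several rested on single or uneven probe sets. B3gat1, a glucuronyltransferase, read 168, 119 and 1.00 with S273A and 1221, 1783 and 2232 with MRL24. Its S273A mean of 96.0 was under the limit and 1 array was at the floor, so it passed the filter through the brighter groups and no fold is given. It also swung from 184 to 1603 among the rosiglitazone arrays, and its other probe sets, below the limit, differed by -0.33 and -0.26. Hmgn3, a nucleosome-binding protein, read 605, 734 and 702 against 1770, 1636 and 1299, a rise of 1.18 (SE 0.22, adjusted p = 0.00338), whereas its second probe set differed by 0.14. Neurl4 read 467, 497 and 416 against 919, 857 and 1108, a rise of 1.03 (SE 0.18, adjusted p = 0.00229). Lcmt1, a methyltransferase that acts on protein phosphatase 2A, read 1090, 1120 and 1003 against 1838, 2064 and 2286, a rise of 0.93 (SE 0.15, adjusted p = 0.00132), and ranged from 758 to 1369 in untreated wild-type cells. P2rx6, a purinergic receptor, rose by 1.04 (SE 0.30, adjusted p = 0.0392), a call lost without the second or the third array of either group (adjusted p of 0.0757 to 0.169), without a filter and without the trend. Penk, proenkephalin, read 179, 194 and 214 against 347, 334 and 342, a rise of 0.76 (SE 0.10, adjusted p = 0.00019). Pkp1, Heatr5b, Ssx2ip, Sspo and Cpeb2 rose by 0.69 to 0.82, with the S273A means of Heatr5b and Ssx2ip under the limit, and the call of Heatr5b was lost without any 1 of the 3 MRL24 arrays or without the second S273A array (adjusted p of 0.0571 to 0.0843).

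Several other programmes held a handful of called genes. Of 20 tested oxidative stress and NRF2 genes, 5 were called lower and 1 higher, against 3.41% and 5.82% of all tested genes, with a median of -0.10. Mgst1, a microsomal glutathione transferase, read 6188, 6586 and 6909 with S273A and 5058, 4769 and 4871 with MRL24, a fall of 0.42 (SE 0.06, adjusted p = 0.000995); a dim second probe set differed by 0.34 and averaging lost the call (adjusted p = 0.801). Gstm1, a cytosolic glutathione transferase, fell by 0.29 (SE 0.06, adjusted p = 0.00481). Of 18 p53 targets 3 were called lower, against 3.41%, among them Btg2, an antiproliferative factor (-0.41, SE 0.07, adjusted p = 0.00264), and Gadd45a, a DNA damage response protein (-0.31, SE 0.06, adjusted p = 0.00434). A second Btg2 probe set differed by 0.11, and averaging them gave an adjusted p of 0.0577. Of 25 inflammatory and NF-κB genes 3 were called lower and 2 higher, against 3.41% and 5.82%: the neutrophil chemokine Cxcl1 read 9561, 9333 and 9647 against 8136, 7842 and 7874, a fall of 0.26 (SE 0.05, adjusted p = 0.0047), and the pentraxin Ptx3 rose by 0.30 (SE 0.07, adjusted p = 0.00914).

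Lists of lipid synthesis, lipid oxidation, cholesterol, stress, clock and mitotic genes held 1 to 4 called genes each, and their counts stand beside 5.82% higher and 3.41% lower of all tested genes; counts this small are not a result about these lists. Of 24 fatty acid and triglyceride synthesis genes 2 were called higher, Acly and Scd2, and 1 lower, the desaturase Scd1 (-0.18, SE 0.04, adjusted p = 0.00928), whose call was lost when probe sets were averaged (adjusted p = 0.715), without the trend (adjusted p = 0.0509) and without the second MRL24 array (adjusted p = 0.0577). That of Scd2 was lost without the third MRL24 array (adjusted p = 0.058), with equal medians (adjusted p = 0.0569) and without the trend (adjusted p = 0.0885). Abhd5, the activator of the triglyceride lipase ATGL, read 1137, 1208 and 1153 against 878, 900 and 905, a fall of 0.38 (SE 0.06, adjusted p = 0.00151). Of 30 fatty acid oxidation genes 2 were called higher and none lower, Acaa1b and Acaa2 (0.24, SE 0.06, adjusted p = 0.0156), with a list median of 0.01. Acaa2 was lost without the first S273A array (adjusted p = 0.068), the third (adjusted p = 0.059) or the first MRL24 array (adjusted p = 0.0749). Of 18 cholesterol genes 2 were called lower, led by the sterol oxidase Msmo1 (-0.26, SE 0.05, adjusted p = 0.00725). Of 31 genes of the unfolded protein response and heat shock, 2 were higher and 2 lower, and Ddit3, the stress factor CHOP, fell by 0.26 (SE 0.05, adjusted p = 0.00753). Of 18 clock genes 3 were higher and 1 lower, with Cry2, a repressor of the clock, up by 0.31 (SE 0.06, adjusted p = 0.00618). Of 46 mitotic genes 1 was called higher, Plk1 (0.34, SE 0.09, adjusted p = 0.0269), and the median was 0.06. The call of Plk1 was lost without the first or the second array of either group (adjusted p of 0.0912 to 0.101), with equal medians and without a filter.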

How the data were processed

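RNA was measured on 12 Affymetrix arrays in 4 groups of 3. The authors deposited 1 table of intensity values on a linear scale with a floor of 1; the sources used here do not state the normalization. Values were used as log2(value + 16), so folds of dim genes are understated. The table holds 22690 probe sets: 20380 name 1 gene, 691 name several, 1555 name none and 64 are controls. For each of 12393 genes the brightest probe set was kept, and the 9154 genes at or above the 30th percentile of mean log2 level (intensity 98.7) were tested.

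All 12 arrays were fitted with limma 3.58.1 in R 4.3.3 (lmFit, eBayes with a trend), with 8 residual degrees of freedom, and MRL24 minus S273A was taken as the contrast. Called means a Benjamini-Hochberg adjusted p under 0.05 over all tested genes; SE, 95% intervals and folds are of log2 values. An exact test of 3 against 3 arrays cannot go below p = 0.1. No test was made on gene lists, which are given by counts and medians. Promoter sequences are from RefSeq, GRCm38.p6; python 3.11.15 searched them.

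The comparison and the lists were chosen with earlier results of these data known. Named by rule are the top 15 called rises and top 15 called falls without overlap between groups, Pparg, Ser273 genes, up to 4 called members per list, uncalled members for contrast, and control genes; single cell type markers were picked after their values were seen. Alternatives were the 6 arrays alone, the replicate block, other pseudocounts, filters and scalings, the mean of probe sets, array weights, no trend and leaving out each array.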

Additional observations from a re-analysis of the deposited data

How the results depend on the processing

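The 845 calls became 1413 with array weights, 564 without the trend, 1228 with the 6 arrays alone, 654 of 12393 genes without a filter, and 398 to 1328 when 1 array was left out. Same-numbered arrays deviated together by correlations of -0.06, -0.03 and 0.03, so no shared deviation was seen. With 3 arrays per group this cannot tell whether the numbers mark a shared culture or day. With the replicate block 759 genes were called, 731 of them shared with the 845. Genes called higher numbered 814 with array weights, 319 with equal medians and 259 to 775 without 1 array. Genes called lower numbered 509 with the 6 arrays alone, 547 after quantile normalization, 600 with equal medians, 599 with array weights, 185 without the trend and 132 to 553 without 1 array. Ser273 genes called lower numbered 2 to 4 without 1 array. Oxidative phosphorylation genes called lower numbered 25 with the 6 arrays alone, 21 after quantile normalization, 23 with equal medians, 24 with array weights, 3 without the trend and 4 to 23 without 1 array. Matrix genes called higher numbered 12 to 19 and agonist targets called higher 5 to 7 over all alternatives. The causes of these shifts were not tested, beyond the fewer arrays or other genes that an alternative itself brings. Among the genes named in the report, signs turned for some that were not called and for none that was: with equal medians Actb gave -0.00296, B2m -0.0329, Plin2 -0.00454 and Rplp0 -0.0342; after quantile normalization B2m gave -0.00953 and Rplp0 -0.0103; with the mean of probe sets Car3 gave 0.0042, Nr1d2 0.0684 and Tbp -0.127; and without 1 array Tbp ranged from -0.0235 to 0.119. Dim genes near the limit have the widest intervals, and genes below it were not tested.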

Other observations

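Families defined by gene symbol, chosen after results had been seen, stand beside the mitochondrial and matrix lists. Of 74 tested genes for mitochondrial ribosomal proteins, which build the ribosome that makes the mitochondrially encoded respiratory subunits, 12 were called lower with MRL24 and 1 higher, against 3.41% and 5.82% of all tested genes; 66 differences were below 0 and the median was -0.14, and -0.17 and -0.19 after quantile normalization and with equal medians. Of 46 genes for cytosolic ribosomal proteins, 2 were called higher and 2 lower, and the median was 0.01 as deposited and -0.04 with equal medians. Of 37 proteasome subunits, 2 were called lower and none higher, a share near that of all tested genes, with a median of -0.07. Of 28 collagen genes, 11 were called higher and none lower, against 5.82% and 3.41%, with a median of 0.12. With equal medians 9 were higher and 1 lower. The collagen count is not separate from the matrix list, which holds many of the same genes, among them the called Col1a1, Col1a2, Col3a1 and Col11a1. Of 9 splicing factor genes of the Srsf family, 2 were called higher and none lower, against the same shares, with a median of 0.18.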
